A study of Mus musculus with 27 samples.

Results

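The haem-regulated eIF2 kinase HRI, encoded by *Eif2ak1*, and 8 genes that act downstream of it were followed in mouse erythroleukaemia (MEL) cells. The other genes were *Atf4*, *Atf5*, *Ddit3*, *Trib3*, *Asns*, *Chac1*, *Ppp1r15a* and *Sesn2*. They were taken by symbol from the 5 RNA-Seq tables of the study, as 9 of 20602 genes listed over these tables. All 9 genes were listed in each table and passed the filter on low counts in each comparison.

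HRI is an erythroid-enriched protein kinase that becomes active when haem is scarce, as well as under oxidative and mitochondrial stress. It phosphorylates the translation initiation factor eIF2, which slows protein synthesis and keeps globin production matched to the supply of haem. Under the same condition the mRNA of the transcription factor ATF4 is translated better, and ATF4 then switches on genes for amino acid supply, redox balance and the return of translation. Much of this control acts on translation and phosphorylation, which mRNA levels do not show.

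RNA was sequenced from cells of the MEL C88 clone in 5 comparisons, comprising 21 libraries. *Cbfa2t3* KD (*Cbfa2t3* encodes the co-repressor ETO2) had 2 control libraries, 2 libraries of hairpin sh2 and 2 of hairpin sh3. *Irf2bp2* KD (encoding the ETO2 partner IRF2BP2) had 2 control libraries and 2 libraries of hairpin sh1. *Kdm1a* KD (encoding the histone demethylase LSD1) had 1 control library and 2 KD libraries. In these lentiviral shRNA experiments, the libraries called WT in the labels carried a non-targeting shRNA, and cells were taken 72 h after transduction. *Gfi1b* KD (encoding the transcriptional repressor GFI1B) had 2 control libraries and 2 KD libraries from siRNA transfections, with no time given in the labels. MEL induction had 2 libraries of non-induced cells at 0 h and 2 of cells induced to differentiate for 96 h, with the inducing agent not given in the sources used here. MEL cells are a virus-transformed leukaemia line arrested at a progenitor stage, which limits them as a model of normal erythroid cells.

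The shRNA libraries held between about 44519400 and 57684600 counted reads, and the *Gfi1b* and MEL induction libraries between about 9929310 and 19623100, so that 3 counts amounted to at most 0.302 CPM (counts scaled to a fixed library total). In control libraries the summed level of 8 erythroid markers lay between 1057 and 1740.1 CPM, that of 5 megakaryocyte markers between 227 and 528 CPM, that of 6 myeloid markers between 0.891 and 3.84 CPM, and that of 5 lymphoid markers at or below 0.476 CPM. *Cbfa2t3* fell by 1.21 on the log2 scale in its KD (adjusted p = 0.00954) and *Kdm1a* by 3.19 in its KD. *Irf2bp2* fell by 0.33 in its KD (adjusted p = 0.00266), from 116 and 120 CPM in the controls to 92.2 and 94.9 CPM. *Gfi1b* was at 122 and 145 CPM in its controls, at 216 CPM in the library labelled *Gfi1b* KD replicate 1 and at 76.5 CPM in that labelled replicate 2. In its *Gfi1b* mRNA the library labelled replicate 1 thus went against its label, while protein levels of these libraries were not at hand. The *Gfi1b* comparison is given below with and without it.

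Between genes, levels were compared per transcript length, as the RPKM values of the authors over the 9 control libraries. *Atf4* and *Asns* (asparagine synthetase) had the highest medians, at 229 and 211 RPKM, with ranges of 101 to 275 and 106 to 277 RPKM that overlapped over nearly their whole width. *Ddit3*, encoding the transcription factor CHOP, followed at 124 RPKM (67.0 to 235). *Atf5*, *Ppp1r15a*, *Trib3*, *Eif2ak1* and *Sesn2* formed a lower group with medians of 39.6, 31.9, 26.7, 22.8 and 20.0 RPKM, in which neighbouring ranges overlapped. *Chac1* was lowest, at 9.32 RPKM (1.37 to 15.9). The level of *Eif2ak1* was the most even relative to its median of this lower group, with a range of 16.8 to 26.1 RPKM, against 13.8 to 69.5 RPKM for *Atf5*.

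The deposited list of ChIP-Seq sites for ETO2 and IRF2BP2 in MEL cells was read at the same loci. Its site classes are codes without a legend, which were read from the number of sites in each class as ETO2-only (1760), shared (2730) and IRF2BP2-only (8739). With each site assigned to the nearest protein-coding gene, 8 of the 9 genes had a listed site, against 44.9% of the protein-coding genes tested in *Irf2bp2* KD. For IRF2BP2-only sites this was 7 of 9 against 36.8%, and for sites with ETO2 4 of 9 against 20.3%. *Atf5* had no listed site. The 17 sites lay within 5986 bp of a transcription start site (TSS), and their fold enrichment of ChIP over IgG was between 4.43 and 25.0. The fold column names no sample, so the ChIP it refers to at a shared site is not known. The series holds 1 IRF2BP2 ChIP library with 1 IgG control and no ETO2 ChIP, which the paper lists among its published data sets.

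Shared sites were found at *Eif2ak1*, *Atf4*, *Ddit3* and *Ppp1r15a*. The *Eif2ak1* gene lies on the plus strand at chr5:144578657-144665125 (mm9), and its only site, at chr5:144579746-144580377, was intronic, 1338 bp downstream of the TSS, with a 10.0-fold enrichment. The shared site of *Atf4* was 4364 bp upstream of the TSS (9.4-fold), that of *Ddit3* was intronic and 1329 bp downstream (4.43-fold), and that of *Ppp1r15a* was exonic and 1311 bp downstream (14.2-fold). IRF2BP2-only sites lay 243 bp upstream of *Ddit3* (11.3-fold), 232 bp upstream of *Chac1* (6.5-fold), 3250 bp upstream of *Trib3* (23.0-fold), 1706 bp upstream of *Sesn2* (5.0-fold) and over the start of *Asns* (16.0-fold). The IRF2BP2-only site with the highest fold was 2287 bp downstream of the TSS of *Ppp1r15a* (25.0-fold). Fold and the adjusted p-value given in the site list did not rank these sites alike. That p-value was 2.58e-05 for this site and 0.00636 for the site of *Asns*. It was lowest, at 3.46e-17, for a site 5986 bp upstream of *Trib3* (9.36-fold).

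**Figure D1:**
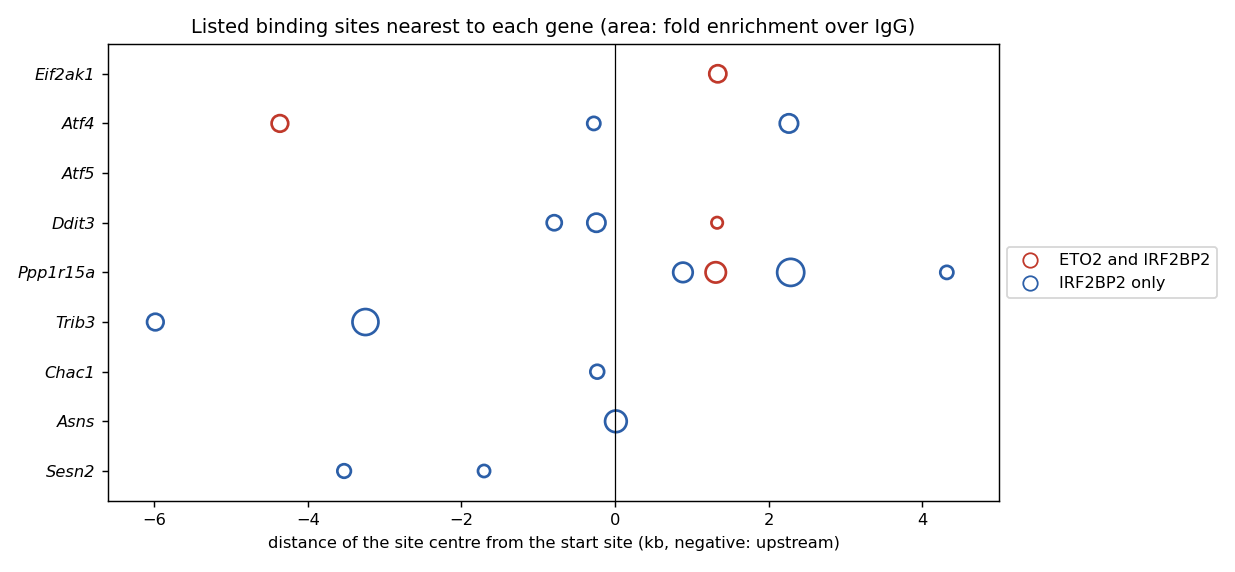
Position of the 17 listed binding sites relative to the TSS of the nearest of the 9 genes, in kb, with negative values upstream. Circle area gives the fold enrichment over IgG and colour the class; 13 sites are IRF2BP2-only and 4 are shared with ETO2, and *Atf5* has none.

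The 100 bases around the centre of each site were searched on both strands for GATAA, the core that GATA factors recognise, and for TGATGNAA, the core of the composite element bound by ATF4 with C/EBP partners. A match of one pattern is never a match of the other. GATAA was present at 4 of the 4 shared sites and at 0 of the 13 IRF2BP2-only sites, against 69.1% and 25.6% of all sites of these classes. Over their whole lengths, 8 of these 13 sites held GATAA. TGATGNAA was present at 4 of the 17 sites, namely those over *Asns* and *Sesn2* and 2 sites of *Ddit3*, against 1.56% of all 13229 sites. Over their whole lengths, 7 of the 17 sites held it, among them sites of *Chac1* and *Trib3*. The sites below, 3 of the 4 shared ones and the promoter site of *Ddit3*, are shown as examples of both patterns outside exons, with matches in capitals (mm9, plus strand). They are the shared sites at chr5:144579945-144580044, chr15:80081200-80081299 and chr10:126729109-126729208, and the IRF2BP2-only site at chr10:126727537-126727636.
*Eif2ak1*, shared, intron: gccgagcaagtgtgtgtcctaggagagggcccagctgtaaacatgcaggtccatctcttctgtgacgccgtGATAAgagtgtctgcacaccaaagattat
*Atf4*, shared, upstream: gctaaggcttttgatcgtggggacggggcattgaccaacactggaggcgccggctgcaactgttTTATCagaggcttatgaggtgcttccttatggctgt
*Ddit3*, shared, intron: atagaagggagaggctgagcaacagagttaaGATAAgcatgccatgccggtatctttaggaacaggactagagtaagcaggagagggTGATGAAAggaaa
*Ddit3*, IRF2BP2-only, upstream: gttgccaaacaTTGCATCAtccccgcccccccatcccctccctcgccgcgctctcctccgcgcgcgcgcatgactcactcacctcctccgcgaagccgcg
Within the 100 bases shown, those of *Eif2ak1* and *Atf4* held GATAA or its complement alone, those in the intron of *Ddit3* held both patterns, and those upstream of *Ddit3* held only the ATF4-type one.

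Promoters of 300 bases from RefSeq (GRCm38.p6) were found for all 9 genes. TGATGNAA or its complement was present in those of *Asns*, *Chac1* and *Trib3*, which is 3 of 9 genes, against 3.97% of all 32851 promoters. The match began 23 bases before the RefSeq start of *Asns*, 193 bases before that of *Chac1* and 14 bases after that of *Trib3*. The 28 bases around each match are shown on the strand of the gene, with the match in capitals, for chr6:7693215-7693242 (minus), chr2:119351039-119351066 (plus) and chr2:152344029-152344056 (minus).
*Asns*: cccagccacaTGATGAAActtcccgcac
*Chac1*: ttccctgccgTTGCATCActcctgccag
*Trib3*: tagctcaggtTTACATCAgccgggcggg
No factor was assigned to these matches. That of *Asns* holds the same bases as the match at its binding site above, and that of *Chac1* lies within its binding site. The genes were chosen as members of this pathway, so the shares at sites and promoters are descriptions and not tests.

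To be called, a gene needed an adjusted p of at most 0.05 in the quasi-likelihood test of edgeR and a shift of at least 0.5 on the log2 scale in either direction. In *Irf2bp2* KD 7 of the 9 genes were called, with *Eif2ak1* and *Ppp1r15a* higher and *Atf4*, *Ddit3*, *Trib3*, *Chac1* and *Sesn2* lower. Of all 12329 genes tested there, 22.5% were called (10.1% higher and 12.5% lower). This KD had 1 hairpin, and its target mRNA fell by a log2 of 0.33, within the fold limit. In these libraries an effect of the hairpin cannot be told apart from one of losing IRF2BP2. MEL induction changed 3 genes, with *Eif2ak1* and *Ppp1r15a* higher and *Ddit3* lower, where 27.2% of all genes were called (12.4% higher and 14.8% lower). *Cbfa2t3* KD changed 1 gene, *Ppp1r15a*, which was higher, where 5.74% of all genes were called (2.99% higher and 2.75% lower). On the adjusted p alone it was 2 genes in *Cbfa2t3* KD, where 11.4% of all genes passed, and the same number of 7 in *Irf2bp2* KD, where 47.1% passed. In *Kdm1a* KD, which has 1 control library and was therefore described by fold, 1 gene, *Ddit3*, was past the fold limit in both KD libraries, as were 22.9% of all genes (13.1% higher and 9.8% lower). In *Gfi1b* KD 0 of the 9 genes were called by edgeR, where 0% of all genes were called, and 0 by DESeq2. At an unadjusted p under 0.05 it was 1 gene in edgeR, *Eif2ak1*.

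**Figure D2:**
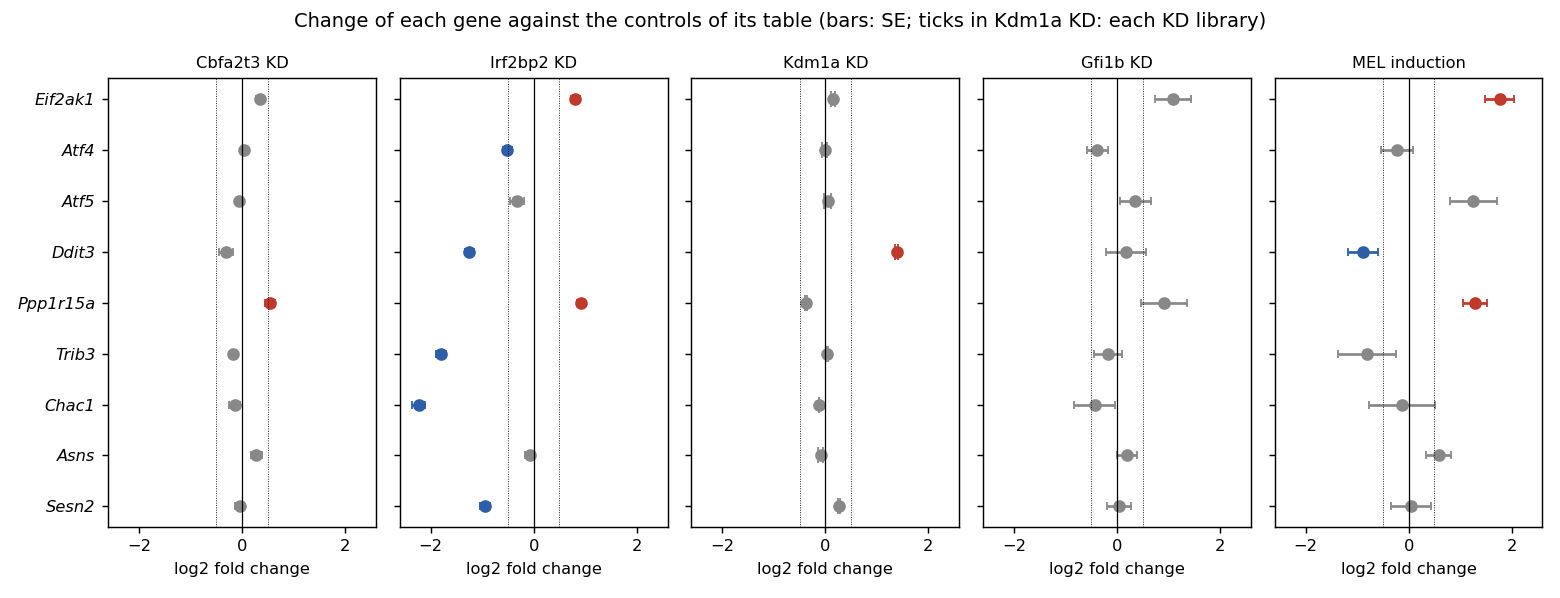
Log2 fold change of each gene against the controls of its table, with bars for the SE of the edgeR fit; in *Kdm1a* KD the ticks mark each KD library and there is no SE. Red points were called higher and blue points lower, where in *Kdm1a* KD colour marks genes past the fold limit in both KD libraries. Dotted lines mark a log2 fold change of 0.5 in either direction, and *Irf2bp2* KD holds 5 blue and 2 red points.

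*Eif2ak1*, the kinase at the head of the pathway, was fitted higher in all 5 comparisons, and was called in *Irf2bp2* KD and MEL induction. In *Irf2bp2* KD the controls had 60.9 and 64.8 CPM against 104 and 116 CPM after KD, a log2 fold change of 0.81 (SE 0.086, adjusted p = 9.81e-07). In MEL induction it was at 61.3 and 59.6 CPM before and at 150 and 263 CPM after induction, a log2 fold change of 1.77 (SE 0.29, adjusted p = 0.000755). The groups did not overlap in either comparison, and the induced libraries differed from each other by 1.76 times. In *Cbfa2t3* KD its level was 66.8 and 69.2 CPM in the controls, 81.2 and 83.9 CPM with sh2, and 87.5 and 92.5 CPM with sh3. This difference, a log2 fold change of 0.34 (SE 0.068, adjusted p = 0.0133), was below the fold limit although the groups did not overlap. The *Kdm1a* KD libraries had 78.3 and 83.2 CPM against 72.8 CPM in their control.

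*Eif2ak1* was higher together with erythroid markers in *Irf2bp2* KD, MEL induction and *Cbfa2t3* KD, and their part in the change was not tested. In *Irf2bp2* KD 8 of 8 erythroid markers were called higher, and their summed level went from at most 1174 CPM in the controls to at least 3184 CPM. In MEL induction 7 of 8 were called higher, and the sum went from at most 1740.1 to at least 3769 CPM. In *Cbfa2t3* KD 6 of 8 were called higher, with a sum of at least 1880.0 CPM in the KD libraries against at most 1338 CPM. Of 5 megakaryocyte markers, 5 were called higher in *Irf2bp2* KD, 1 in *Cbfa2t3* KD, and 2 in MEL induction, where 1 was called lower (*Ppbp*, log2 fold change -5.05). In *Kdm1a* KD the markers did not go with *Eif2ak1*. By fold alone 3 erythroid markers were lower there and 0 higher, their sum being 1416 CPM in the control and at most 1013 CPM after KD, and 1 megakaryocyte marker was higher and 1 lower. The only tested myeloid marker, *Cd68* (1.43 to 2.90 CPM), and the only tested lymphoid marker, *Cd79a* (0.164 to 0.587 CPM), were also past the fold limit upwards there. In these bulk libraries a different share of maturing cells and a different amount of RNA per cell cannot be told apart.

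The transcription factors of the pathway moved less evenly. *Atf4*, its central activator, had 369 and 356 CPM in the controls of *Irf2bp2* KD against 246 and 263 CPM after KD, a log2 fold change of -0.51 (SE 0.085, adjusted p = 0.000118). The groups did not overlap, but the change lies at the fold limit. Without control replicate 1 or KD replicate 1, or without the filter on low counts, it was no longer called. In *Cbfa2t3* KD *Atf4* was between 396 and 452 CPM in the 4 KD libraries and at 401 and 414 CPM in the controls. In *Kdm1a* KD the levels were 329 and 350 CPM, with 342 CPM in the control. Within each of these comparisons the values of the groups overlapped.

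*Ddit3* was called lower in *Irf2bp2* KD and MEL induction, and was past the fold limit upwards in *Kdm1a* KD. In *Irf2bp2* KD it went from 121 and 138 CPM in the controls to 53.0 and 55.7 CPM, a log2 fold change of -1.25 (SE 0.088, adjusted p = 6.54e-09). In *Kdm1a* KD it went from 57.9 CPM in the control to 155 and 148 CPM, log2 differences of 1.41 and 1.35 for the KD libraries. The directions were opposite, and the groups did not overlap in either table. With the lone control assumed to vary like the KD pair, *Ddit3* was past both limits in *Kdm1a* KD by edgeR, where 22.5% of all genes were called, and by DESeq2, but these fits hold no measure of the spread between controls. With the spread shared over tables, it was 1.40 (adjusted p = 0.0461) in the joint fit of 21 libraries described below, where 5.22% of all genes were called, and 1.39 (adjusted p = 7.04e-05) in that of the 13 shRNA libraries, where 19.3% were called. *Ddit3* was the only one of the 9 genes called in each of these 4 fits. In MEL induction *Ddit3* was at 183 and 112 CPM before and at 94.9 and 65.3 CPM after induction, a log2 fold change of -0.88 (SE 0.29, adjusted p = 0.0347), a call that was lost without non-induced replicate 1 or induced replicate 2. In *Cbfa2t3* KD it had 98.6 and 97.2 CPM in the controls, 96.3 and 83.1 CPM with sh2, and 68.7 and 65.8 CPM with sh3. All 4 KD libraries lay below the controls, but the change was not called over both hairpins (log2 fold change -0.32, adjusted p = 0.180).

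The controls of *Ddit3* differed between tables as much as its groups did within them. It was at 57.9 CPM in the control of *Kdm1a* KD, at 97.2 and 98.6 CPM in those of *Cbfa2t3* KD and at 121 and 138 CPM in those of *Irf2bp2* KD, although each was a non-targeting shRNA after 72 h. Differences between tables were therefore taken only as differences of fold changes, each against its own controls.

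*Atf5*, a bZIP factor whose mRNA is also translated better when eIF2 is phosphorylated, was not called in any comparison as fitted here. In *Irf2bp2* KD it had 39.1 and 47.6 CPM, with 43.4 and 65.6 CPM in the controls, and the control libraries differed by a log2 of 0.60. In MEL induction it was at 60.0 and 23.0 CPM before and at 148 and 51.2 CPM after induction (log2 fold change 1.26, adjusted p = 0.0522). The groups overlapped in both comparisons. *Atf5* was called lower in *Irf2bp2* KD without control replicate 1. In MEL induction it was called higher under 5 of the alternative settings, among them the replicate number as a block, and in each group replicate 1 had the higher level.

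*Ppp1r15a*, which encodes GADD34, the phosphatase subunit that reverses eIF2 phosphorylation, was called in 3 comparisons, higher in each. In *Irf2bp2* KD it went from 73.7 and 71.5 CPM to 132 and 142 CPM, a log2 fold change of 0.91 (SE 0.082, adjusted p = 1.46e-07). In MEL induction it went from 96.9 and 91.6 CPM to 216 and 244 CPM, a log2 fold change of 1.29 (SE 0.24, adjusted p = 0.00186). Both changes stayed called in each alternative fit that was run. In *Cbfa2t3* KD it was at 69.5 and 80.1 CPM in the controls, 113 and 124 CPM with sh2 and 102 and 97.5 CPM with sh3, a log2 fold change of 0.54 (SE 0.10, adjusted p = 0.0118). The groups did not overlap, but the call was lost without either control, without sh2 replicate 2, and with sh3 alone. In *Kdm1a* KD the KD libraries were lower, at 65.0 and 66.4 CPM against 85.0 CPM, within the fold limit (log2 difference -0.37).

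Its relative *Ppp1r15b*, which encodes the constitutive eIF2 phosphatase subunit, was also called higher in *Irf2bp2* KD, from a mean of 321 to 505 CPM (log2 fold change 0.65, adjusted p = 1.36e-05). In MEL induction it went from 292 to 1155 CPM (log2 fold change 1.98, adjusted p = 0.000158).

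*Trib3* and *Chac1*, which ATF4 and CHOP induce, had the largest changes of the 9 genes in *Irf2bp2* KD. *Trib3* encodes a pseudokinase that restrains ATF4 and CHOP, and it went from 54.2 and 61.7 CPM in the controls to 16.4 and 16.8 CPM (log2 fold change -1.80, SE 0.095, adjusted p = 2.29e-10). *Chac1* encodes an enzyme that degrades glutathione, and it went from 21.9 and 24.5 CPM to 4.80 and 5.03 CPM (log2 fold change -2.24, SE 0.12, adjusted p = 2.24e-10). The KD libraries were within 1.05 times of each other for both genes and far from the controls. In *Cbfa2t3* KD, *Trib3* was between 59.7 and 66.4 CPM in the KD libraries against 71.97 and 69.2 CPM (adjusted p = 0.128), and *Chac1* was between 20.0 and 25.7 CPM against 23.9 and 24.3 CPM (adjusted p = 0.466). In *Kdm1a* KD both genes stayed within a log2 of 0.12 of the control.

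*Sesn2*, which encodes the stress-induced protein sestrin 2 that restrains growth signalling, fell in *Irf2bp2* KD from 52.5 and 58.0 CPM to 30.4 and 27.0 CPM (log2 fold change -0.94, SE 0.093, adjusted p = 4.14e-07). The groups did not overlap. *Asns*, a classical ATF4 target with a TGATGAAA match near its start (above), had nearly the same values in both groups of that KD, 473 and 523 CPM in the controls against 464 and 479 CPM after KD (adjusted p = 0.492). *Asns* was also not called in any other comparison as fitted here. In MEL induction it was at 256 and 207 CPM before and at 333 and 363 CPM after induction (log2 fold change 0.58, adjusted p = 0.0830), without overlap of the groups. It was called there under 1 of the alternative settings, the replicate number as a block.

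**Figure D3:**
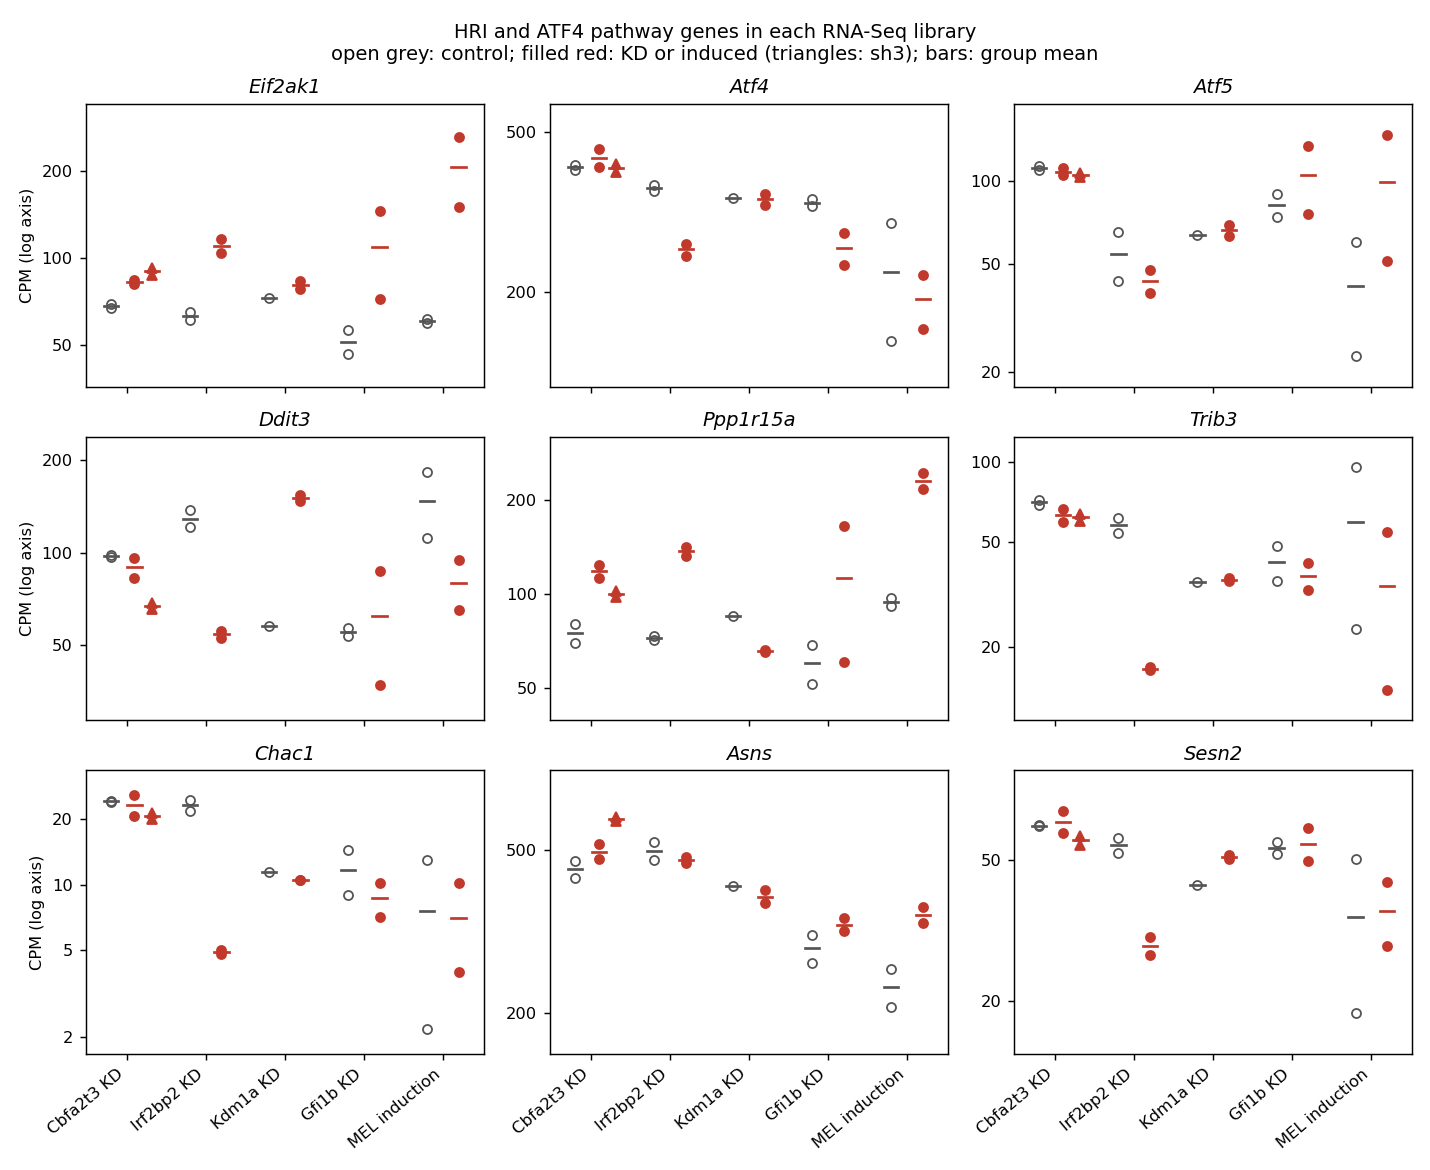
CPM of each of the 9 genes in each of the 21 libraries on a log axis, with open grey circles for controls, filled red points for KD or induced libraries, triangles for hairpin sh3 and bars for group means. *Trib3* and *Chac1* are lowest in *Irf2bp2* KD among the shRNA libraries, and *Ddit3* stands highest among them in *Kdm1a* KD.

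The libraries of MEL induction differed widely within their groups for the stress genes. Before induction *Trib3* was at 95.8 CPM in replicate 1 and at 23.5 CPM in replicate 2, *Chac1* at 13.0 and 2.19 CPM, and *Sesn2* at 50.6 and 18.5 CPM. Of all genes tested, 0.478% had a larger gap between these libraries than *Trib3*, 0.162% a larger gap than *Chac1* and 1.78% a larger gap than *Sesn2*. After induction *Trib3* was at 54.5 and 13.8 CPM, *Chac1* at 10.2 and 3.97 CPM and *Sesn2* at 43.3 and 28.6 CPM. The groups overlapped for all 3 genes, and *Eif2ak1* and *Ppp1r15a* were, by contrast, within 1.06 times of each other in the non-induced libraries. In both groups replicate 1 had the higher level of these 3 genes. *Trib3* was called lower under 3 of the alternative settings, among them the replicate number as a block. Its fitted change was -2.12 without induced replicate 1 and 0.53 without non-induced replicate 1.

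**Figure D4:**
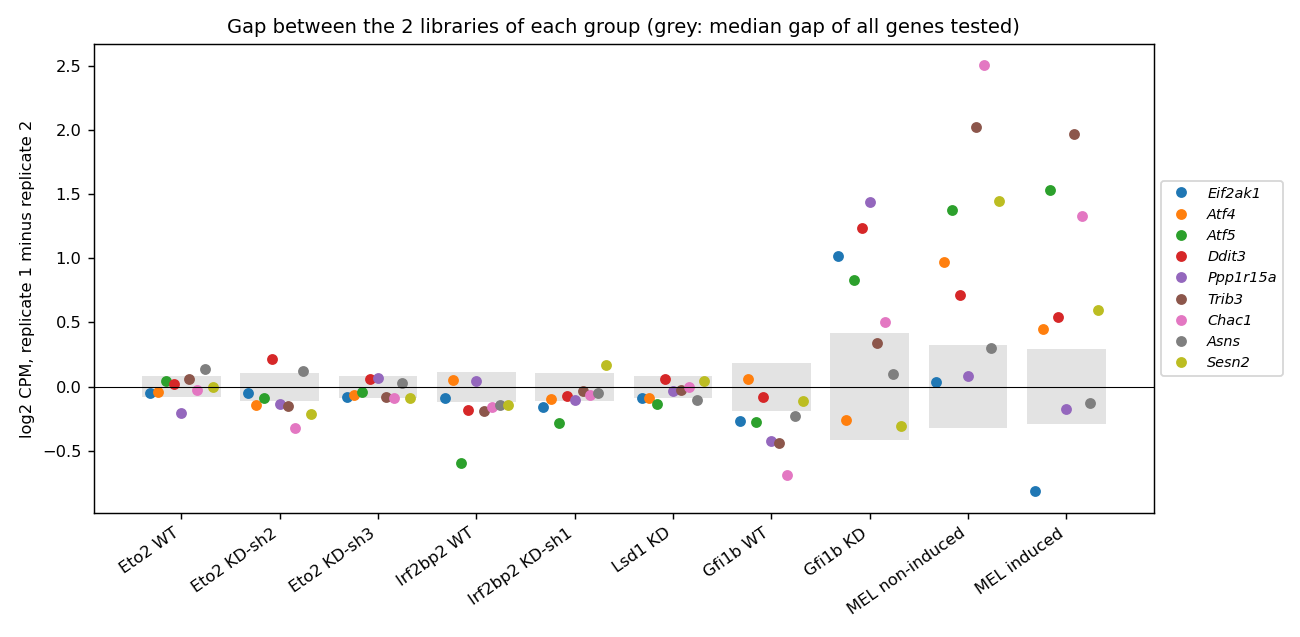
Difference in log2 CPM between replicate 1 and replicate 2 of each group for the 9 genes, with grey boxes for the median gap of all genes tested. The shRNA groups stay within a log2 of 0.60, while *Chac1* reaches 2.50 and *Trib3* 2.02 in non-induced MEL cells.

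In *Gfi1b* KD the library labelled replicate 1, in which *Gfi1b* itself was higher than in the controls, also stood apart for some of the 9 genes. It did not for *Trib3* (41.7 CPM) and *Chac1* (10.2 CPM), which lay between their controls, and *Asns* was at 340 CPM there and at 317 CPM in replicate 2. *Eif2ak1* was at 46.5 and 56.0 CPM in the controls, at 146 CPM in that library and at 71.96 CPM in replicate 2. *Ppp1r15a* was at 51.4 and 68.8 CPM in the controls, at 164 CPM in that library and at 60.6 CPM in replicate 2. *Ddit3* was at 53.8 and 56.8 CPM in the controls, with 87.6 CPM in that library and 37.1 CPM in replicate 2, one above and one below the controls. Without the library labelled replicate 1, 0 of the 9 genes were called by edgeR, where 396 of 11381 genes were, and the fitted change of *Ddit3* was -0.58. Without replicate 2, the only KD library left was the one with more *Gfi1b* mRNA than the controls. The lower and higher sums of erythroid markers over the KD libraries were 1116 and 3116 CPM, against at most 1174 CPM in the controls. Those of megakaryocyte markers were 179 and 905 CPM, against 227 and 292 CPM in the controls, and their part in the result was not tested.

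The 9 genes were then set beside other genes of the pathway. *Eif2ak3*, the kinase PERK that responds to unfolded protein in the endoplasmic reticulum (ER), was called higher in *Irf2bp2* KD, from a mean of 28.3 to 41.0 CPM (log2 fold change 0.53, adjusted p = 0.000239), a call that was lost without control replicate 2 or KD replicate 1. In the same KD, *Eif2ak2*, the double-stranded RNA sensor PKR, went from 83.7 to 63.7 CPM (log2 fold change -0.39, adjusted p = 0.000670), within the fold limit. *Eif2ak4*, the amino acid sensor GCN2, went from 70.8 to 64.3 CPM (adjusted p = 0.177). In MEL induction and *Cbfa2t3* KD all 3 kinases had log2 fold changes between -0.18 and 0.20, and none was called. In *Kdm1a* KD they were between -0.27 and 0.34, and in *Gfi1b* KD between -0.23 and 0.51, the highest being *Eif2ak3* (adjusted p = 0.724).

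In *Irf2bp2* KD, 7 of 10 genes of amino acid synthesis were called lower and 0 higher, where 12.5% of all genes were called lower. Their median log2 fold change was -0.62, against -0.0063 for all genes tested. *Cth*, which makes cysteine from cystathionine, fell from a mean of 34.5 to 8.19 CPM (log2 fold change -2.08, adjusted p = 1.35e-10). *Psph*, of serine synthesis, fell from 70.6 to 38.6 CPM, *Gpt2*, of alanine synthesis, from 98.5 to 54.3 CPM, and *Pycr1*, of proline synthesis, from 9.27 to 5.20 CPM. The count was between 5 and 7 when a library was left out.

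In 3 further lists of ATF4-induced genes, some members were called lower in *Irf2bp2* KD, to be read against the 12.5% of all genes called lower. Of 8 bZIP partners and other ATF4-induced regulators tested, 3 were called lower and 0 higher (median -0.36), namely *Nupr1* (37.3 to 15.2 CPM), *Ddit4* (48.4 to 29.6 CPM) and *Cebpg* (115 to 73.4 CPM). Of 13 genes for aminoacyl-tRNA synthetases and the tRNA exporter *Xpot*, 3 were called lower (median -0.35), namely *Sars* (385 to 186 CPM), *Yars* (202 to 129 CPM) and *Tars* (334 to 236 CPM). This count was 2 with DESeq2, without control replicate 1 or without KD replicate 2, and 5 without control replicate 2. Of 8 amino acid transporters, 3 were called lower (*Slc1a4*, *Slc3a2* and *Slc38a2*; 2 without KD replicate 2) and 1 higher. The higher one was *Slc6a9*, the glycine transporter that erythroid cells use for haem synthesis, which went from 42.9 to 97.9 CPM.

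Of 12 ER chaperones of the unfolded protein response, 0 were called in *Irf2bp2* KD by edgeR and 0 by DESeq2, with 6 at an unadjusted p under 0.05 and a median of -0.16. Of 4 chaperones of HRI, 0 were called by either tool, with 2 at an unadjusted p under 0.05. The genes of the mitochondrial relay that signals to HRI, *Oma1* and *Dele1*, gave 0 calls by either tool and 1 unadjusted p under 0.05. Of 10 genes for subunits of eIF2, its exchange factor eIF2B and its phosphatases, *Ppp1r15b* was the only one called.

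In *Cbfa2t3* KD, 0 of 70 genes of these lists were called by edgeR, where 5.74% of all genes were called, and 0 by DESeq2. At an unadjusted p under 0.05 in edgeR it was 23 genes, 9 of them among the 12 ER chaperones. All 12 were fitted lower, between -0.50 and -0.11. The summed level of that list was at least 4804 CPM in the controls and at most 4079 CPM after KD. With sh2 alone 2 of the 70 genes were called lower, and with sh3 alone 2 lower and 1 higher. The list medians lay between -0.25, for ER chaperones, and 0.070, for the eIF2 and eIF2B genes, against 0.0022 for all genes tested. In *Kdm1a* KD, where 13.1% of all genes were past the fold limit upwards and 9.8% downwards, *Nupr1* (24.4 to 44.8 CPM) and *Herpud1* (74.5 to 120 CPM), of the ATF4-induced regulators, were past the fold limit upwards, while *Cebpg* (71.9 to 45.2 CPM) and *Eif4ebp1* (135 to 90.4 CPM) were past it downwards. Amino acid synthesis had 0 of 10 genes past the limit there, and transport had 3 lower, *Slc6a9*, *Slc1a4* and *Slc7a1*. Of the ER chaperones, 3 were lower (*Creld2*, *Pdia6* and *Sdf2l1*). These list counts are by fold alone.

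In MEL induction, 8 of 10 genes of amino acid synthesis were called lower, where 14.8% of all genes were called lower, with a median log2 fold change of -1.24 against -0.020 for all genes. *Cth* fell to a mean of 2.20 CPM (log2 fold change -3.32, adjusted p = 0.000254) and *Psph* from 36.5 to 7.47 CPM, followed by *Gpt2* (66.1 to 26.5 CPM) and *Shmt2*, of glycine synthesis (382 to 156 CPM). Of 13 genes in the synthetase list 7 were called lower (median -0.85), and of 12 ER chaperones 8 were called lower and 1 higher (median -0.95). All 4 HRI chaperones were called lower, led by *Hsp90ab1*, which went from 6088 to 2031 CPM (log2 fold change -1.58, adjusted p = 0.00108). Without induced replicate 2 these counts were 3 for synthesis, 0 for synthetases, 4 for ER chaperones and 1 for HRI chaperones. Without non-induced replicate 1 or 2 they were 4 or 5 for synthesis and 2 or 2 for synthetases. The remaining lists were smaller there, with *Atf3* and *Stc2* called lower among the regulators, *Eif2b3*, *Eif2b1* and *Eif2s2* lower beside *Ppp1r15b* higher, and *Slc6a9* higher and *Slc1a5* lower among transporters. When a library was left out, the number called lower was between 1 and 5 for the regulators (1 without non-induced replicate 1, 5 without induced replicate 1). It was between 0 and 2 for the eIF2 and eIF2B genes (0 without induced replicate 2), and 0 for the transporters except without induced replicate 1, where it was 3.

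**Figure D5:**
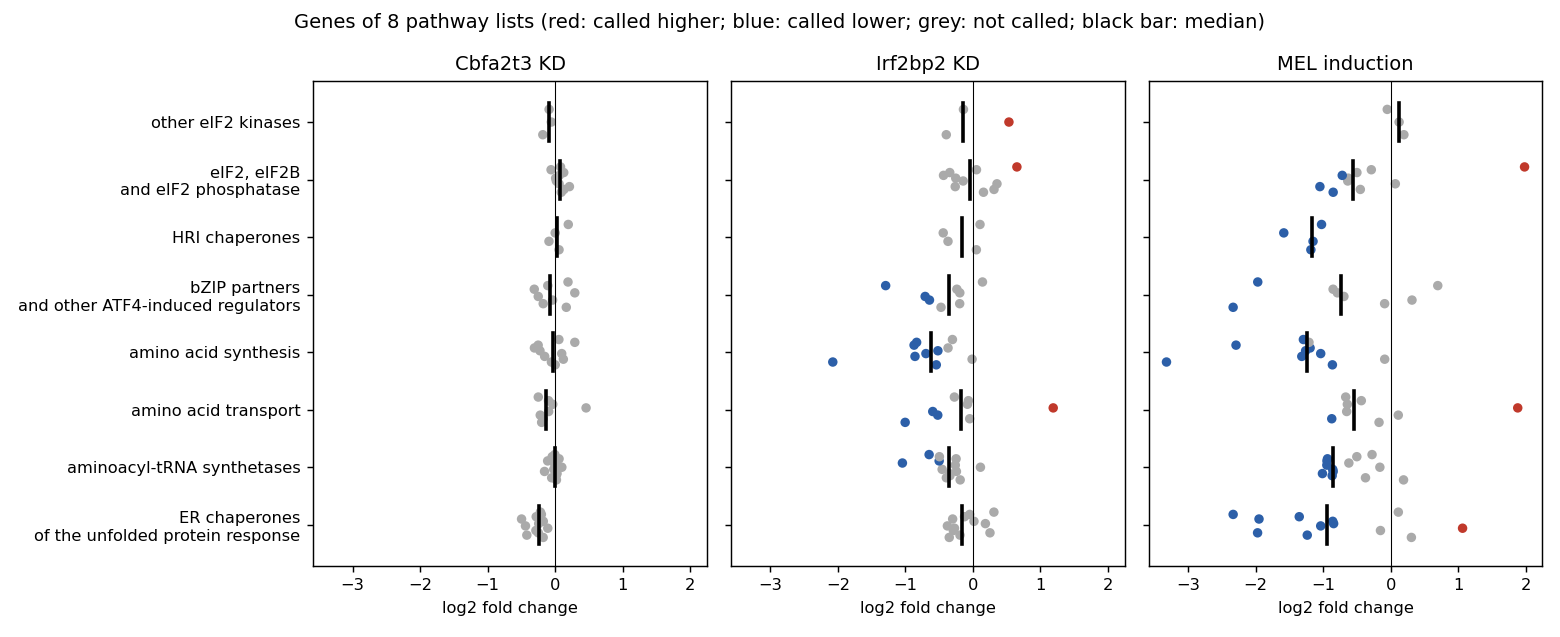
Log2 fold change of each tested gene of 8 pathway lists in *Cbfa2t3* KD, *Irf2bp2* KD and MEL induction on a common scale, with black bars for list medians. Red points were called higher, blue points lower and grey points not called; amino acid synthesis has 0 called genes in *Cbfa2t3* KD, 7 lower in *Irf2bp2* KD and 8 lower in MEL induction.

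In *Gfi1b* KD 0 of 70 list genes were called by edgeR, as were 0% of all genes, and 1 by DESeq2, with 3 at an unadjusted p under 0.05 in edgeR. Without the library labelled replicate 1 it was 1 gene. Without replicate 2, the library with more *Gfi1b* mRNA than the controls was again the only KD library.

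The hairpins against *Cbfa2t3* were compared with each other. The contrast of sh3 with sh2 called 0 of the 9 genes, where 3.71% of all genes were called, with 4 at an unadjusted p under 0.05 in edgeR and DESeq2 not run for this contrast. *Ddit3* was lower with sh3 (log2 difference -0.42, adjusted p = 0.00367) and *Asns* higher (log2 difference 0.26, adjusted p = 0.0244), both within the fold limit. With each hairpin alone against the controls, sh2 called *Ppp1r15a* and sh3 called *Ddit3*. *Cbfa2t3* itself was at 202 and 244 CPM with sh2 and at 123 and 145 CPM with sh3.

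To ask whether effects differed between comparisons, all 21 libraries were fitted together, and fold changes were subtracted from each other. The *Kdm1a* and *Cbfa2t3* effects differed for 1 gene, *Ddit3* (difference of log2 fold changes 1.71, SE 0.46, adjusted p = 0.0393), where 5.42% of all genes were called. The *Irf2bp2* and *Cbfa2t3* effects differed for 0 of the 9 genes, where 1.18% of all genes were called by edgeR, with 4 at an unadjusted p under 0.05, no DESeq2 fit of this kind and *Chac1* at a difference of -2.10 (adjusted p = 0.119). This fit shares its spread with the more variable *Gfi1b* and MEL induction libraries. In a fit of the 13 shRNA libraries alone, chosen after seeing the data, the *Irf2bp2* and *Cbfa2t3* effects differed for 5 genes, where 14.7% of all genes were called. They were *Chac1* (-2.08, adjusted p = 2.86e-06), *Trib3* (-1.61, adjusted p = 6.03e-07), *Ddit3* (-0.91, adjusted p = 0.00299), *Sesn2* (-0.88, adjusted p = 0.000426) and *Atf4* (-0.53, adjusted p = 0.00167). The fold change of each was lower in *Irf2bp2* KD. In the same fit the *Kdm1a* and *Cbfa2t3* effects differed for *Ddit3* (1.71, adjusted p = 4.59e-05) and *Ppp1r15a* (-0.91, adjusted p = 0.000517), where 23.4% of all genes were called. The *Gfi1b* and *Cbfa2t3* effects, in the fit of 21 libraries, differed for 0 of the 9 genes by edgeR, where 2.46% of all genes were called, with 1, *Eif2ak1*, at an unadjusted p under 0.05. Without the library labelled *Gfi1b* KD replicate 1, which leaves 1 KD library, it was again 0 of 9, where 3.9% of all genes were called, with 1, *Ppp1r15a*, at an unadjusted p under 0.05. That fit was also chosen after seeing the data.

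The rise of *Eif2ak1* and *Ppp1r15a* in *Irf2bp2* KD was not shown to differ from *Cbfa2t3* KD past the fold limit in the fit of the 13 shRNA libraries, with differences of 0.48 (adjusted p = 0.00464) and 0.39 (adjusted p = 0.0501). Against MEL induction, the fold change of *Eif2ak1* was smaller in *Cbfa2t3* KD (difference -1.42, adjusted p = 0.00559) and in *Kdm1a* KD (-1.60, adjusted p = 0.00668), where 26.1% and 26.3% of all genes were called. For *Irf2bp2* KD this difference was -0.95 (adjusted p = 0.0596), where 22.3% of all genes were called, and for *Gfi1b* KD -0.67 (adjusted p = 0.211), where 14.4% were called. Without the library labelled *Gfi1b* KD replicate 1 the last difference was -1.28 (adjusted p = 0.00258) and that of *Ppp1r15a* was -1.27 (adjusted p = 0.000468), where 33.5% of all genes were called.

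Across the 21 libraries, each taken against the control mean of its table, *Ppp1r15a* followed *Eif2ak1* most closely of the 9 genes (Pearson r = 0.880), while *Atf4* was opposed to it (r = -0.504). *Chac1* and *Sesn2* moved together (r = 0.927), as did *Chac1* and *Trib3* (r = 0.880), and *Atf4* with *Chac1* (r = 0.815) and *Trib3* (r = 0.814). *Asns* was nearly unrelated to *Atf4* (r = 0.0726) and closer to *Eif2ak1* (r = 0.688). Among 9706 genes with a mean of at least 5 CPM, the patterns most like that of *Eif2ak1* were those of *Ube2l6* (r = 0.967), *Ell* (r = 0.966) and *Ranbp10* (r = 0.965). For *Atf4* they were *Nadk* (r = 0.882), *Mrpl10* (r = 0.857) and *Nckap5l* (r = 0.850), and for *Ddit3* they were *Rbms2* (r = 0.942), *D17H6S56E-5* (r = 0.933) and *Cd97* (r = 0.908). These are descriptions, since libraries of a table share controls and a KD or induction moves many genes together.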

How the data were processed

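The 9 genes and the pathway lists were chosen with earlier results of these data known. RNA-Seq of MEL cells was mapped by the authors with TopHat2 to mm9. Per the labels and methods, the deposited raw counts and RPKM values are per RefSeq gene, without a statement that strand was used. The deposited site list gives a fold enrichment (ratio of ChIP to IgG) and an adjusted p-value per site, and 4 further columns of read numbers were not used, nor were the authors' fold changes and p-values of the RNA-Seq tables.

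The count test was that of edgeR 4.0.16 (R 4.3.3; TMM, filterByExpr, glmQLFit and glmQLFTest), each table alone, with Benjamini-Hochberg adjustment over all genes tested. CPM values are on TMM library sizes. *Kdm1a* KD was described by log2 CPM with a prior count of 2, and also tested with the lone control assumed to vary like the KD pair. The procedure was tested on simulated data. The study states independent biological replicates, but no label ties libraries to cultures, so p-values may measure technical spread. Sites and promoters were searched in Python 3.11.15 with pandas 2.3.3, gene positions being those of GENCODE for mm9. Besides the 9 genes, those named were the other eIF2 kinases, up to 4 called genes with the largest change per list, and the 3 most alike genes for *Eif2ak1*, *Atf4* and *Ddit3*. Values of genes named only for their list are group means. Alternatives were DESeq2 1.42.0 and its size factors, other filters, no fold limit, the replicate number as a block, each hairpin alone and leaving out each library.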

Additional observations from a re-analysis of the deposited data

Results flagged for a closer look

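Effects of the same gene differed between comparisons in 8 cases, by the contrast of fold changes in the joint edgeR fit of 21 libraries. *Ddit3* differed most between *Kdm1a* KD and MEL induction (2.28, adjusted p = 0.00367), and it also differed between *Kdm1a* and *Cbfa2t3* KD (1.71, adjusted p = 0.0393). For *Eif2ak1* the difference from MEL induction was -1.42 in *Cbfa2t3* KD and -1.60 in *Kdm1a* KD. *Ppp1r15a* differed by -1.64 between *Kdm1a* KD and MEL induction (adjusted p = 0.0117). *Asns* differed from MEL induction by -0.66 in *Irf2bp2* KD (adjusted p = 0.0241) and by -0.66 in *Kdm1a* KD (adjusted p = 0.0332). *Chac1* differed by -2.07 between *Irf2bp2* KD and MEL induction (adjusted p = 0.0402), where the non-induced libraries were at 13.0 and 2.19 CPM. Over all genes, 26.1%, 22.3% and 26.3% differed from MEL induction in *Cbfa2t3*, *Irf2bp2* and *Kdm1a* KD, and 5.42% between *Kdm1a* and *Cbfa2t3* KD. The 2 of 9 genes in *Irf2bp2* KD are thus near the share of all genes in this fit, which has no replicate block. With the replicate number as a block, more of the 9 genes differed in that contrast, as given below. The effects of *Kdm1a* KD rest on 1 control library, and no cause was tested. Among the 4 *Cbfa2t3* KD libraries, no single library stood far from the other 3 for any of the 9 genes.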

How the results depend on the processing

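Of 585 values of single genes under the alternatives, 510 kept their direction and side of the limits. The count of called genes was 2 for *Cbfa2t3* KD without the fold limit, 2 for *Gfi1b* KD and 5 for MEL induction without a filter on low counts. Leaving out a library gave 0 to 1 genes for *Cbfa2t3* KD, 6 to 7 for *Irf2bp2* KD, 0 to 5 for *Gfi1b* KD and 3 to 4 for MEL induction. With the replicate number as a block, MEL induction had 6 called genes, with *Atf5* (adjusted p = 0.000704), *Trib3* (0.0173) and *Asns* (0.0377) added. Under the block the differences of effects from MEL induction covered 3 genes for *Cbfa2t3*, 5 for *Irf2bp2* and 1 for *Gfi1b* KD. That of *Irf2bp2* from *Cbfa2t3* KD covered 2 genes, and the other counts of such differences kept within 1.5 times. For pathway lists in MEL induction, the block called 4 regulators lower against 2 without it, and 4 transporters against 1. For the eIF2 and eIF2B genes it was 5 against 3, and for synthetases 8 against 7. Synthesis and ER chaperones kept 8 each, and HRI chaperones 4. Over all genes, libraries with equal replicate numbers deviated together only weakly (r between 0.0015 and 0.25). No label ties them, so the replicate number is not taken as a pairing. This does not exclude a pairing for single genes. In both MEL induction groups replicate 1 was higher for *Atf4*, *Atf5*, *Ddit3*, *Trib3*, *Chac1* and *Sesn2*. In the fit of shRNA libraries the differences from *Cbfa2t3* KD covered 5 genes for *Irf2bp2* and 2 for *Kdm1a* KD. Over all genes, *Cbfa2t3* KD had 720 called, against 279 and 360 without control replicate 1 or 2 and 1145 with sh3 alone. MEL induction had 3187, against 1626 and 1522 without non-induced replicate 1 or 2 and 1772 without induced replicate 2. *Gfi1b* KD had 0, against 47 with DESeq2 and 411 without a filter. *Kdm1a* KD had 2893 by fold, against 2838 with edgeR and 2200 with DESeq2 when the lone control was assumed to vary like the KD pair, and 740 in the fit of 21 libraries.

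Signs turned only for values that were not called with the settings of the report. Over the fits that left out a library, *Atf4* ranged from -0.0015 to 0.060 in *Cbfa2t3* KD. In *Irf2bp2* KD *Atf5* ranged from -0.59 to 0.0079 and *Asns* from -0.15 to 0.00082. In *Gfi1b* KD the ranges were -0.12 to 0.70 for *Atf5*, -0.58 to 0.64 for *Ddit3*, -0.38 to 0.052 for *Trib3* and -0.14 to 0.18 for *Sesn2*. In MEL induction they were -0.63 to 0.33 for *Atf4*, -2.12 to 0.53 for *Trib3*, -0.97 to 1.68 for *Chac1* and -0.49 to 0.94 for *Sesn2*. With 1 hairpin *Sesn2* was at 0.033 (sh2) and *Atf4* at -0.0079 (sh3). Under the block *Chac1* was at 0.17 in MEL induction, with differences of -0.23 for *Cbfa2t3* and -0.19 for *Kdm1a* KD. With DESeq2 size factors the difference of *Trib3* between *Gfi1b* and *Cbfa2t3* KD was -0.0095. Without the library labelled *Gfi1b* KD replicate 1, the difference of *Gfi1b* KD from MEL induction covered 2 genes and that of *Sesn2* was 0.15, and the differences from *Cbfa2t3* KD were -0.075 for *Atf5*, -0.28 for *Ddit3*, -0.19 for *Trib3* and -0.55 for *Ppp1r15a*. The cause was not tested. *Kdm1a* KD has 1 control, so a paired fit was not possible there. The *Gfi1b* and MEL induction libraries, with fewer reads and wider spread, limit the precision of both comparisons.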
